A study of Mus musculus with 6 samples.

Results

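The Ikaros family genes Ikzf1, Ikzf2, Ikzf3, Ikzf4 and Ikzf5 were examined in chromosome contact maps of mouse B-cell progenitors. In situ Hi-C joins pieces of DNA that were neighbours inside the intact nucleus and reads both ends of each joint, and the resulting read pairs had been counted between bins of about 100 kb. For each gene the bin holding its start in the mm10 annotation and all bins within 1 Mb were taken, which gave 5 of 20807 autosomal protein-coding genes and 105 of 23651 autosomal bins kept for testing. The rule for these genes uses their names and no measured value, while the family was picked with earlier results of these data known.

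Erg KO cells carried Rag1CreT/+;Erg fl/fl, in which a Rag1-driven Cre deletes the floxed alleles of Erg, an ETS family transcription factor gene, in lymphoid progenitors. They were set against a CreT control (Rag1CreT/+, Cre with unfloxed Erg) and an Erg fl/fl control (Rag1Cre+/+;Erg fl/fl, floxed Erg without the transgene). Each group had 2 libraries, of which replicate 2 of the Erg KO and of the Erg fl/fl control was labelled male and the other 4 libraries female. All mice were labelled with the strain C56BL/6, which is not how the study's text spells its strain, and with no age, for which the methods give only a range over the study's mice. All cells had been lineage-negative marrow grown for 8 days on OP9 stroma with SCF, IL7 and FL before positive selection for B220. The study's methods name the replicates as biological, but a p-value over 2 libraries a group measures little more than their own spread. In the study the knockout cultures are described as pre-proB and those with Erg as proB, so loss of Erg and developmental stage cannot be told apart. No RNA was measured in these libraries, so neither expression of the 5 genes nor cell identity could be checked by markers.

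Ikaros family proteins are zinc-finger transcription factors that bind DNA through N-terminal fingers and pair with one another through C-terminal fingers, and they recruit the NuRD chromatin remodelling complex. Ikaros (Ikzf1) and Aiolos (Ikzf3) are used throughout B-cell development, where Ikaros is needed from the earliest lymphoid progenitors and Aiolos comes up as pre-B cells mature. Helios (Ikzf2) is best known from early haematopoietic and regulatory T cells, Eos (Ikzf4) from regulatory T cells and neural tissue, and Pegasus (Ikzf5) is the broadly expressed and most divergent member. Ikzf1, Ikzf2 and Ikzf3 are called the lymphoid members below, with Ikzf4 and Ikzf5 as the others.

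The genes lie in unlike surroundings. Ikzf1 (chr11:11685003-11772926, plus strand) starts in a bin of 41.8% GC within a window holding 9 protein-coding gene starts. Ikzf2 (chr1:69531214-69687245, minus strand) starts in a bin of 39.7% GC, and its window is the poorest in genes with 3 starts. Ikzf3 (chr11:98464902-98546031, minus strand) shares its start bin, of 45.4% GC, with Zpbp2, Ormdl3 and Lrrc3c in a window of 76 starts. Ikzf4 (chr10:128630843-128645991, minus strand) shares a bin of 46.0% GC with Rps26, Suox and Rab5b, and its window is the richest with 102 starts. Ikzf5 (chr7:131388652-131410521, minus strand) shares a bin of 43.1% GC with Acadsb in a window of 22 starts. A contact of a start bin therefore belongs to the whole bin and, except for Ikzf2, to more than 1 gene start.

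Promoter sequences of 300 bases were taken from RefSeq (build GRCm38.p6), whose table matched 2 of the 5 genes, Ikzf1 with 2 starts and Ikzf5 with 1. They are shown because these are the places that a start bin stands for, and because Erg is an ETS factor, whose family binds sites around GGAA. Capitals mark CAGGAAG or its reverse complement CTTCCTG, an ETS-type motif searched on both strands.
Ikzf1, first start (chr11:11685675-11685974, plus strand): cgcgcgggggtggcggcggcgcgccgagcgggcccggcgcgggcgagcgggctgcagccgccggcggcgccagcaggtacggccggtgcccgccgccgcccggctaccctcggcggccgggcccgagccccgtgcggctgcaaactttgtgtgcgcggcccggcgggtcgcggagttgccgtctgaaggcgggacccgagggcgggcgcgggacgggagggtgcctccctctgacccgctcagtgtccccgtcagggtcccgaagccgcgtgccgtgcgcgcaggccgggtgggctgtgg
Ikzf1, second start (chr11:11689927-11690226, plus strand): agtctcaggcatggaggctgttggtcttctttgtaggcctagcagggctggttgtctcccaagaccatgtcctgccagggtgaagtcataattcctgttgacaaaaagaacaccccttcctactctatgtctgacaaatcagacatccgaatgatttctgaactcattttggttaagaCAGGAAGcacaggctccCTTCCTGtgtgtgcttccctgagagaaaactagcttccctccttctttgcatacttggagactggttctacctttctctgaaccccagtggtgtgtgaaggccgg
Ikzf5 (chr7:131410429-131410728, minus strand): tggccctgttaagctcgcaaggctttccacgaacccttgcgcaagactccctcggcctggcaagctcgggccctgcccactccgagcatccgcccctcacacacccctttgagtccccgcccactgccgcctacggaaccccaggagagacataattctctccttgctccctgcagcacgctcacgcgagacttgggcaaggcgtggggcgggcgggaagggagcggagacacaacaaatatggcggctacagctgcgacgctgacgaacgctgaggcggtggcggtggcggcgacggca
The first Ikzf1 promoter was 81.3% GC with 52 CG dinucleotides and the second 49.0% GC with 2, although both lie in the same start bin. The Ikzf5 promoter had 27 CG dinucleotides, against a median of 7 over all RefSeq promoters. The ETS-type motif stood in 2 copies in the second Ikzf1 promoter and in 13.3% of 32851 RefSeq promoters. TGGGAA, an Ikaros-type motif searched on both strands, was in 25.6% of those promoters and in none of the 3 shown. A GGAA cannot belong to both motifs on 1 strand, and a match here is a description of letters and not a binding site.

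Libraries held between 29014581 and 68085468 read pairs, with Erg fl/fl control replicate 2 the shallowest. These totals are below the depth given in the study's methods, and why they differ could not be settled here. The share of read ends on chromosome X was 2.24% and 2.51% in the libraries labelled male and between 4.29% and 4.49% in those labelled female. Read pairs joining different chromosomes made up 32.3% and 34.6% of the Erg KO libraries and between 21.6% and 26.8% of the control libraries. Coverage climbed with the GC content of a bin by 0.43 and 0.59 (log2 per 10% GC) in the Erg KO libraries, and by 0.77 to 1.03 in the control libraries. GC content therefore weighed less on the Erg KO libraries, and values with offsets for GC and for coverage are given with the results below.

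Contacts of the start bins differed between the members in direction. Over all 754142 bin pairs tested with edgeR, 6.3% changed in Erg KO cells against the mean of both controls at an adjusted p below 0.05 (3.19% fell and 3.1% rose), and of pairs up to 1 Mb 7.5% fell and 8.08% rose. Of the 94 start-bin pairs within 1 Mb that had enough read pairs to be tested, out of 105, 18 fell and 8 rose. Ikzf3 had 9 that fell out of 21 and Ikzf4 had 9 out of 15, and neither had any that rose. Ikzf2 had 6 that rose out of 20 and Ikzf1 had 2 out of 17, and neither had any that fell. None of 21 changed for Ikzf5. The share of all bin pairs that changed fell steeply with distance, with 36.3% of bins with themselves, 28.4% at 100 kb, 17.5% at 200 to 400 kb and 8.85% at 500 kb to 1 Mb.

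**Figure D1:**
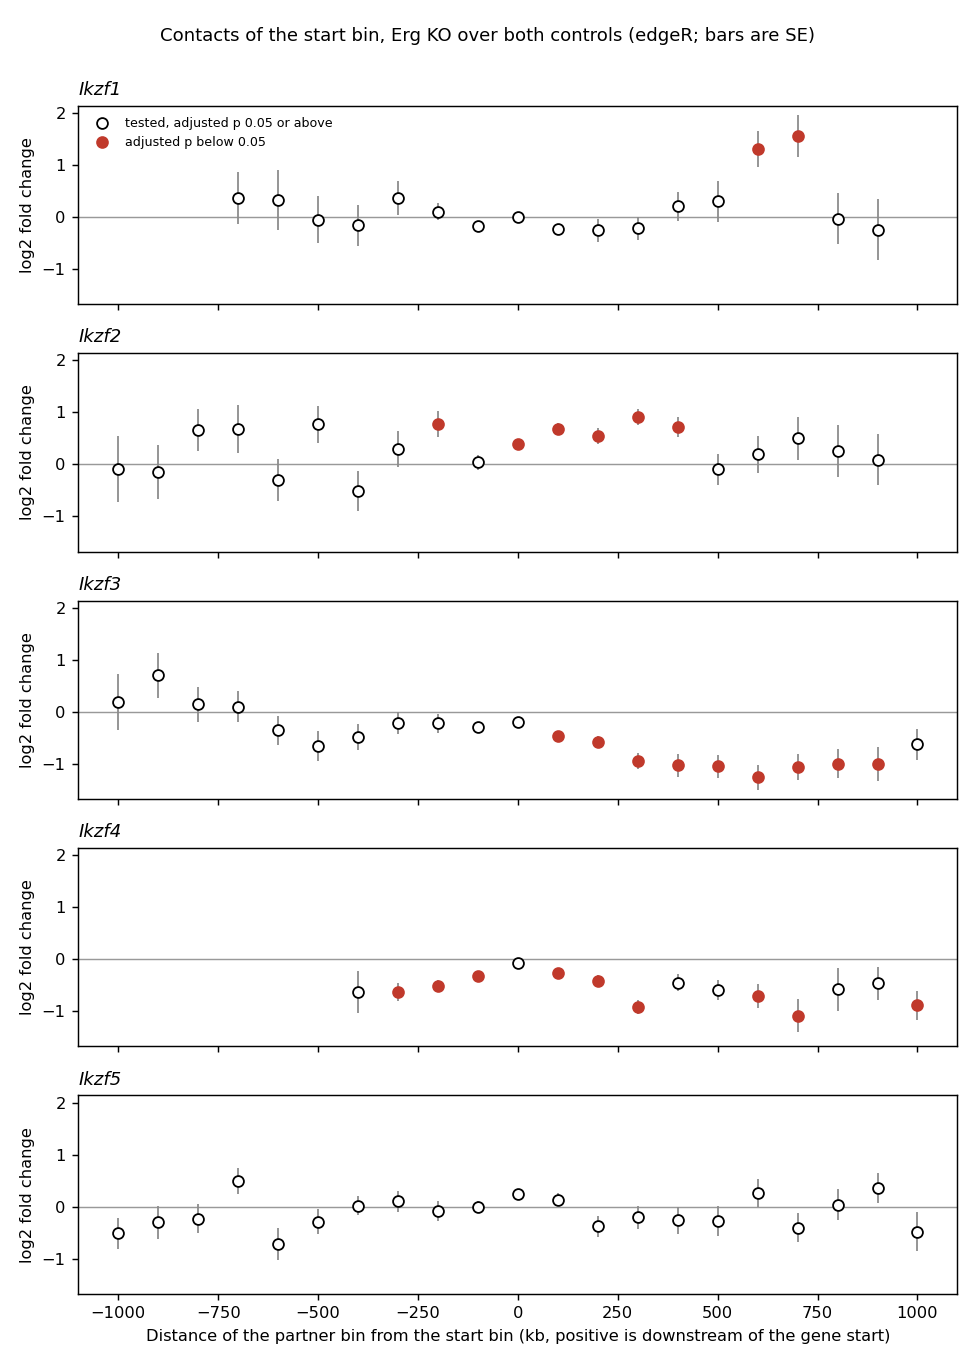
Change of each start-bin contact in Erg KO cells. The horizontal axis is the distance of the partner bin from the start bin in kb, positive downstream of the gene start, and the vertical axis the edgeR log2 fold change, Erg KO over the mean of the controls, with its SE. Filled points have an adjusted p below 0.05. Points lie below 0 on the downstream side of Ikzf3 and on both sides of Ikzf4, above 0 at 100 to 400 kb downstream of Ikzf2, and at 600 and 700 kb downstream of Ikzf1.

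Without any 1 of 4 libraries, the 2 of Erg KO and the 2 of the Erg fl/fl control, edgeR called 0 of the 754142 bin pairs, with 85438, 82144, 127345 and 72194 at an unadjusted p below 0.05 (Erg KO replicates 1 and 2, then the control replicates 1 and 2 left out). Of the 26 called start-bin pairs, 25, 26, 26 and 26 kept their direction in those fits. Only replicate 2 of the Erg KO and of the Erg fl/fl control are male. Without either, the sex term takes up the other, and Erg KO replicate 1 is set against the female controls. The 2 fits are thus nearly 1 comparison and do not tell those 2 libraries apart, here and in all fits below that hold a sex term. Leaving out CreT control replicate 1 or 2 kept 16 and 20 of the 26 as calls in the same direction. In the 4 fits with 0 calls, only the difference between the 2 CreT control libraries is left to measure spread. The 0 calls thus cannot show that the calls rest on the library left out. The 26 pairs were picked as calls over all libraries, and each refit reuses most of these, so kept directions are little support. The direction that changed was that of 1 pair of Ikzf1 given below. Over all bin pairs, the share called was 0.871% with offsets for GC content and 0.801% with offsets for coverage, so the smaller counts of members called with those offsets, given for each gene below, stand beside a smaller share of all pairs.

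Ikzf1, whose product Ikaros is the founding member of the family, had no called change within 500 kb of its start and 2 rises beyond. The start bin with itself had 228 and 235 normalised read pairs in the Erg KO libraries (counts divided by the fitted library offsets), against 233 and 235 in the CreT control and 266 and 212 in the Erg fl/fl control. Groups overlapped with a log2 fold change of -0.01 (adjusted p = 0.976), and all other tested pairs out to 500 kb on either side lay between -0.26 and 0.36 and were not called. The start bin met the bin 600 kb downstream with 28.8 and 16.6 normalised read pairs in Erg KO cells, against 9.56 and 7.28 in the CreT control and 10.4 and 12.6 in the Erg fl/fl control. Both Erg KO libraries were above all 4 control libraries, and the log2 fold change was 1.30 ± 0.35 (SE, adjusted p = 0.00833). The next bin, 700 kb downstream, had 24.5 and 10.9 in Erg KO cells, against 7.96 and 11.3 in the CreT control and 3.17 and 6.34 in the Erg fl/fl control. Here Erg KO replicate 2 lay below CreT control replicate 2, so the groups overlapped, and the log2 fold change was 1.55 ± 0.41 (adjusted p = 0.00774). Neither bin holds a protein-coding gene start, and both overlap Cobl, which encodes an actin-nucleating protein. These were few read pairs, 27 and 15 before normalisation in Erg KO cells for the first bin. Without Erg KO replicate 1 the log2 fold changes were 0.54 and -0.04, so the second rests on that library. Unlike most calls of the other genes, both were still called with offsets for GC content and with offsets for coverage. With DESeq2 neither was called, while 9 of the 26 called start-bin pairs of all members were. With a count minimum of 100 neither was tested.

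Ikzf2, the Helios gene, gained contacts with the gene-free stretch beyond its 3′ end. The largest of these changes was with the bin 300 kb downstream, which had 136 and 88.8 normalised read pairs in Erg KO cells, against 61.0 and 74.4 in the CreT control and 72.1 and 53.1 in the Erg fl/fl control. Both Erg KO libraries exceeded every control library, with a log2 fold change of 0.91 ± 0.15 (adjusted p = 6.31e-06). The bin 100 kb downstream, which holds the 3′ part of the gene, had 192 and 162 in Erg KO cells, against 106 and 139 in the CreT control and 121 and 96.02 in the Erg fl/fl control. Every Erg KO value exceeded every control value, and the log2 fold change was 0.68 (adjusted p = 2.2e-05). Contacts also rose with the bins 200 kb downstream (0.54, adjusted p = 0.0113) and 400 kb downstream (0.72, adjusted p = 0.00869). The run of rises ended at the bin 500 kb downstream, which holds the start of Erbb4, an epidermal growth factor receptor family gene, with a log2 fold change of -0.09 (adjusted p = 0.919). Contact of the start bin with itself rose by 0.39 (adjusted p = 0.00512), with 253 and 226 in Erg KO cells, against 184 and 202 in the CreT control and 178 and 180 in the Erg fl/fl control. Upstream, only the bin at 200 kb, which holds the start of Spag16, a sperm axoneme gene, was called among 10 tested bins. It had 38.0 and 50.4 in Erg KO cells, against 25.4 and 27.9 in the CreT control and 25.8 and 19.96 in the Erg fl/fl control, a log2 fold change of 0.78 (adjusted p = 0.037). Without Erg KO replicate 1 this value was 1.33 and without Erg fl/fl control replicate 2 it was 0.52, and that of the bin 200 kb downstream was 0.84 without Erg KO replicate 1. With offsets for GC content 2 of the 6 rises were called, and with offsets for coverage none was.

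Ikzf3, the Aiolos gene, lost contacts on its downstream side. Of 10 tested bins downstream 9 fell, and the median over all 10 was -1.002 (log2 fold change), and of 10 upstream none was called, with a median of -0.22. Whether the sides differ was not tested. The bin 100 kb downstream, which holds the starts of Erbb2, Grb7, Pgap3 and Mien1, had 283 and 280 normalised read pairs in Erg KO cells, against 305 and 325 in the CreT control and 380 and 514 in the Erg fl/fl control. All control libraries were higher, by a margin that was small in the CreT control, and the log2 fold change was -0.46 ± 0.08 (adjusted p = 4.78e-05), and it was -0.73 with replicate 1 of Erg KO left out and -0.28 with replicate 2 left out. The bin of Cdk12, a kinase of the transcription machinery, 300 kb downstream, had 67.9 and 55.1 in Erg KO cells, against 118 and 105 in the CreT control and 111 and 138 in the Erg fl/fl control. Here the groups lay well apart, and contact fell by 0.94 on the log2 scale (adjusted p = 6.79e-06). The bin of Plxdc1 and Arl5c, 600 kb downstream, had 17.6 and 37.6 in Erg KO cells, against 57.9 and 47.8 in the CreT control and 34.1 and 72.5 in the Erg fl/fl control. Erg KO replicate 2 exceeded Erg fl/fl control replicate 1, although this pair had the lowest fold change of the gene within 1 Mb, -1.26 ± 0.24 (adjusted p = 0.000114). The other named bins were those of Ppp1r1b at 200 kb (-0.58), of Fbxl20 and the Mediator subunit gene Med1 at 400 kb (-1.03), and of Stac2 at 500 kb (-1.05), with adjusted p between 0.00026 and 0.000762. Upstream lie the bins of Csf3 and Thra at 200 kb, of Rara and Cdc6 at 400 kb, of Top2a at 500 kb and of the chemokine receptor gene Ccr7 at 600 kb. Their log2 fold changes of -0.23, -0.48, -0.65 and -0.36 had adjusted p between 0.19 and 0.547. The start bin with itself had 369 and 327 in Erg KO cells, against 380 and 376 in the CreT control and 384 and 460 in the Erg fl/fl control, and was not called (-0.19, adjusted p = 0.133). With offsets for GC content 4 of the 9 falls were called, and with offsets for coverage 1 was.

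Ikzf4, the Eos gene, had log2 fold changes below 0 for all 15 tested pairs. Of 10 bins downstream 6 fell, and of 4 tested bins upstream 3 fell, while the other 6 upstream bins, within an olfactory receptor gene cluster, had too few read pairs to be tested. The bin of Cs, the citrate synthase gene, 300 kb downstream, had 75.3 and 96.9 normalised read pairs in Erg KO cells, against 127 and 122 in the CreT control and 143 and 212 in the Erg fl/fl control. Groups did not overlap, Erg fl/fl control replicate 2 stood far above the rest, and the log2 fold change was -0.91 ± 0.13 (adjusted p = 3.93e-07). This was the only start-bin pair of Ikzf4 called against the CreT control alone (-0.79, adjusted p = 0.000784). The bin 700 kb downstream, which holds no gene start, had 14.8 and 13.2 in Erg KO cells, against 28.6 and 27.2 in the CreT control and 31.0 and 32.8 in the Erg fl/fl control. Libraries of each group lay close together and apart from the Erg KO ones, with a log2 fold change of -1.08 ± 0.31 (adjusted p = 0.019). Contacts also fell with the bin of Smarcc2, a BAF complex gene, 200 kb downstream (-0.42), and upstream with the bins of Cdk2 and Pym1 at 100 kb (-0.33), Ormdl2 at 200 kb (-0.52) and Cd63 and Mettl7b at 300 kb (-0.63), with adjusted p between 0.003 and 0.0181. The upstream values moved with single Erg KO libraries. Without replicate 1 they were -0.18, -0.89 and -0.999 at 100, 200 and 300 kb, and without replicate 2 those at 200 and 300 kb were -0.29 and -0.37. The start bin with itself was not called (-0.07, adjusted p = 0.696). With offsets for GC content 1 of the 9 falls was called, and with offsets for coverage 1 was.

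Ikzf5, the Pegasus gene, had no called pair among 21, and its log2 fold changes lay between -0.72 and 0.49. Its smallest p was with the bin 600 kb upstream, which held 12.7 and 20.9 normalised read pairs in Erg KO cells, against 22.2 and 20.9 in the CreT control and 35.1 and 31.4 in the Erg fl/fl control. Only the Erg fl/fl control stood apart here (-0.72 ± 0.31, adjusted p = 0.164). The start bin with itself had 229 and 179 in Erg KO cells, against 206 and 178 in the CreT control and 177 and 167 in the Erg fl/fl control, with groups that overlapped (0.23, adjusted p = 0.19).

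**Figure D2:**
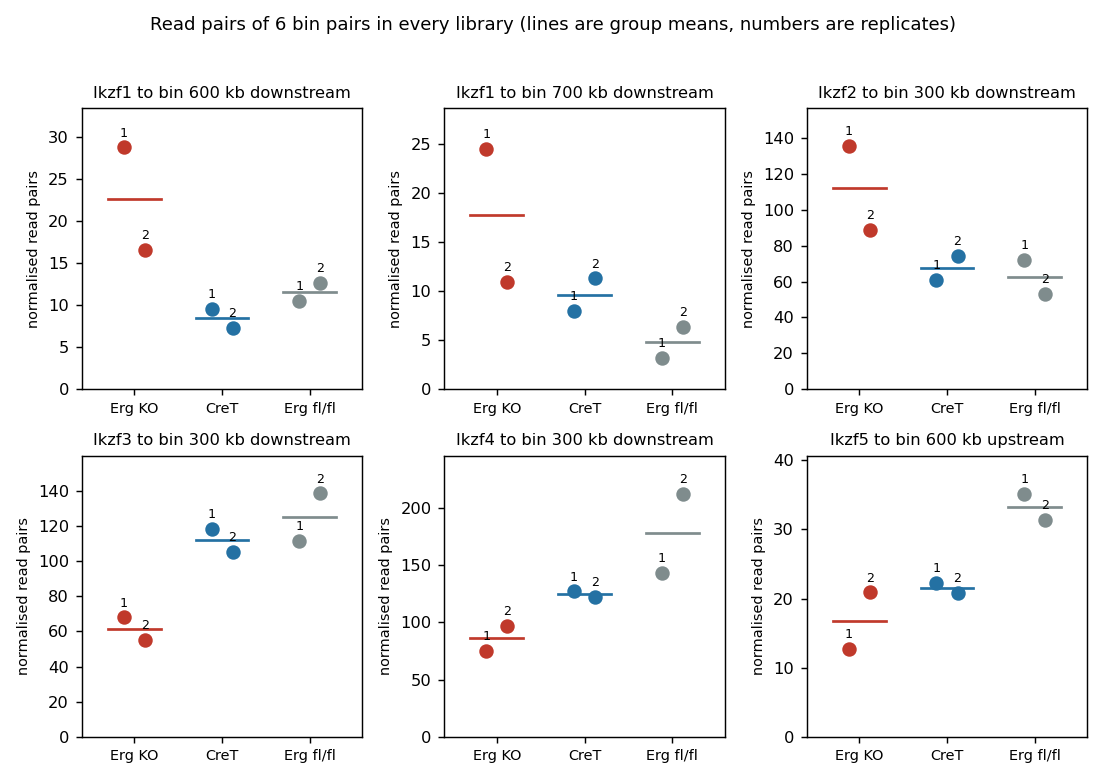
Normalised read pairs of 6 start-bin pairs, each library as a point numbered by replicate and each line a group mean. Erg KO libraries are on the left, then the CreT and Erg fl/fl controls. The Erg KO points lie below all control points for Ikzf3 and Ikzf4 at 300 kb downstream, above them for Ikzf2 at 300 kb and Ikzf1 at 600 kb downstream, and overlap them for Ikzf1 at 700 kb downstream and Ikzf5 at 600 kb upstream.

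The members were also set against each control group alone, comparisons that share the Erg KO libraries. Against the CreT control, where 3.29% of all bin pairs changed (1.62% fell and 1.67% rose) and of pairs up to 1 Mb 4.11% fell and 4.48% rose, start-bin calls were 1 rise for Ikzf1, 4 rises for Ikzf2, 3 falls for Ikzf3, 1 fall for Ikzf4 and 0 of 21 for Ikzf5. Against the Erg fl/fl control, where 4.58% changed (2.65% fell and 1.93% rose) and of pairs up to 1 Mb 6.08% fell and 5.07% rose, they were 1 rise for Ikzf1, 4 rises for Ikzf2, 8 falls for Ikzf3, 6 falls for Ikzf4 and 0 of 21 for Ikzf5. For Ikzf5 against those controls, 1 and 3 pairs had an unadjusted p below 0.05. Between the CreT and Erg fl/fl controls, where 0.000133% of all bin pairs changed, edgeR called 0 of the 94 pairs and 4 had an unadjusted p below 0.05, while DESeq2 called 0 and had 1. The Ikzf3 bin 100 kb downstream was the call with the lowest control to control p, with a log2 fold change of -0.37 for CreT over Erg fl/fl control (adjusted p = 0.493).

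Beyond 1 Mb, 2 of 242 tested start-bin pairs fell and none rose, against 2.85% changed at 1.1 to 2 Mb and 0.792% beyond 2 Mb over all bin pairs. The Ikzf3 start bin met the bin of Arhgap23, 1100 kb downstream, with 6.38 and 12.2 normalised read pairs in Erg KO cells, against 17.5 and 18.6 in the CreT control and 19.7 and 33.2 in the Erg fl/fl control. Groups did not overlap, and contact fell by 1.46 on the log2 scale (adjusted p = 0.00666), which continues the run of falls out to 900 kb on that side with a gap at 1000 kb (-0.63, adjusted p = 0.22). The Ikzf1 start bin and the bin of B3gnt2, 11200 kb downstream, shared 1 and 3 read pairs in Erg KO cells, against 6 and 9 in the CreT control and 2 and 10 in the Erg fl/fl control. These counts overlapped between groups, and the fitted log2 fold change of -2.50 ± 0.76 (adjusted p = 0.0257) rests on them, with -1.55 without Erg fl/fl control replicate 2. With offsets for GC content or for coverage neither pair was called.

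The same fit was read for all pairs of bins inside the windows. Of 1045 tested pairs 183 fell and 66 rose. Over all bin pairs 7.5% fell and 8.08% rose up to 1 Mb, and 2.85% changed at 1.1 to 2 Mb, and the windows hold pairs of both ranges. Ikzf3 had 105 falls and 1 rise among 214 pairs (median log2 fold change -0.63), and Ikzf4 58 falls and 8 rises among 158 (median -0.46). Ikzf2 had 45 rises and no fall among 218 (median 0.50), Ikzf1 12 rises and 3 falls among 224 (median 0.17), and Ikzf5, with no called start-bin pair, 17 falls and no rise among 231 (median -0.24). The shares called for Ikzf1 (6.7%) and Ikzf5 (7.36%) lay below the 15.6% of all pairs up to 1 Mb. For Ikzf4 the 8 rises lay on the upstream side, where the olfactory receptor genes are, while of 42 tested pairs that bridge the start 21 fell with a median of -0.96. For Ikzf3, 49 of 66 pairs on the downstream side, 31 of 65 on the upstream side and 25 of 83 across the start fell. The upstream Ikzf3 bins thus lost contacts among themselves, although none of their contacts with the start bin was called. For Ikzf5, 11 of the 17 falls were among upstream bins, 6 were across the start, and none was downstream. Between the control groups edgeR called 0 of the 1045 pairs, with 64 at an unadjusted p below 0.05, and DESeq2 called 0 with 8.

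**Figure D3:**
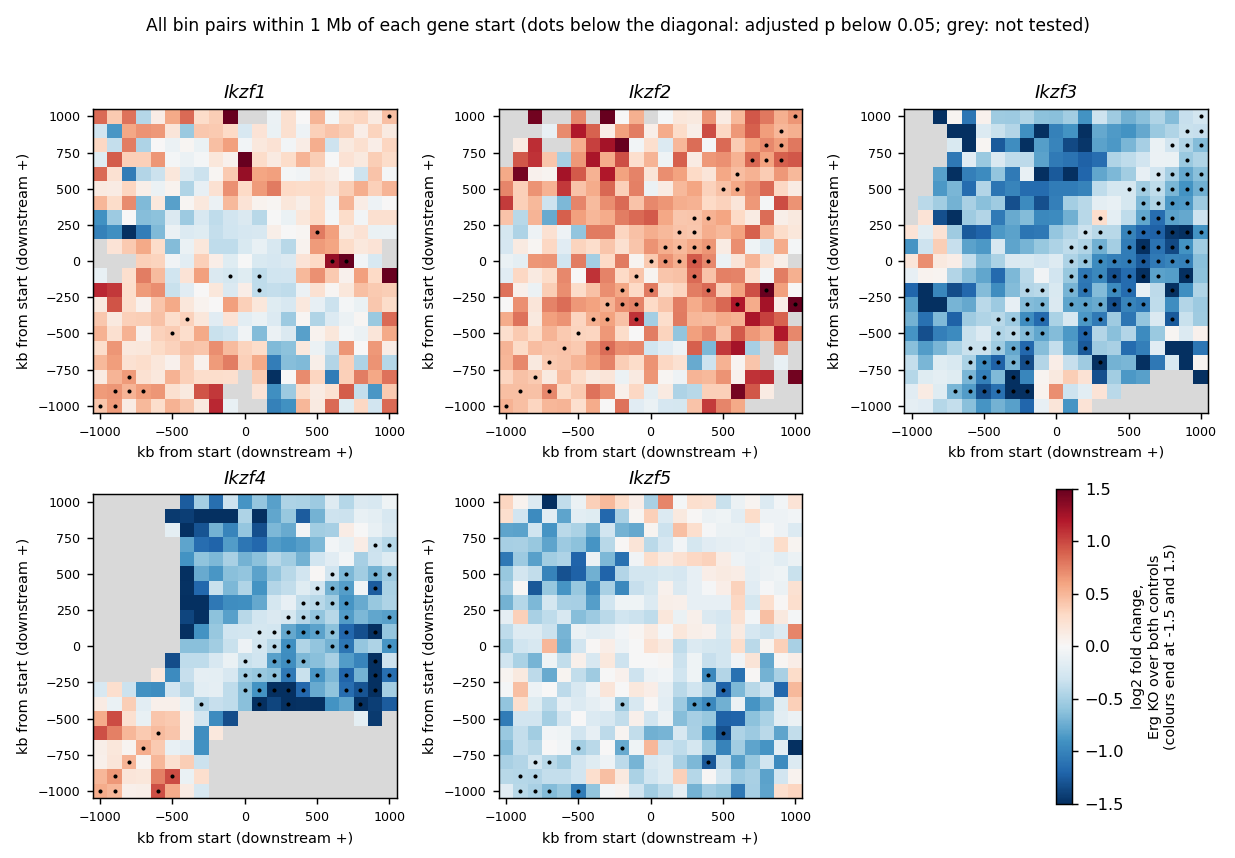
Change of all bin pairs within 1 Mb of each start, with distance from the start in kb on both axes, positive downstream. Colour is the log2 fold change, Erg KO over the mean of the controls, from blue (lower in Erg KO cells) to red (higher), ending at -1.5 and 1.5. Dots below the diagonal mark an adjusted p below 0.05, and grey pairs were not tested. The Ikzf3 window and the downstream side of Ikzf4 are mostly blue, the Ikzf2 window mostly red, and the olfactory receptor side of Ikzf4 is largely untested.

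Coverage and GC content differed between the windows. The mean coverage of the windows, as log2 over the autosomal median, was 0.31 in Erg KO cells and 0.50 in the controls for Ikzf3, and -0.23 in Erg KO cells and -0.45 in the controls for Ikzf2. Both Erg KO libraries lay outside the range of all 4 control libraries in each of the 5 windows, with an exact permutation p of 0.0667, the smallest that 2 against 4 libraries allow. Window coverage, Erg KO minus controls, was 0.04 for Ikzf1, 0.22 for Ikzf2, -0.19 for Ikzf3, -0.05 for Ikzf4 and -0.12 for Ikzf5. GC content of the windows was 40.5% for Ikzf1, 37.9% for Ikzf2, 47.6% for Ikzf3, 43.7% for Ikzf4 and 45.5% for Ikzf5. Coverage and contacts thus differed in the same direction in each window but not in the same order, since Ikzf4 had a smaller coverage difference than Ikzf5 and a median further below 0 for its contacts. With GC offsets the median over the window was -0.35 for Ikzf3, -0.29 for Ikzf4, 0.12 for Ikzf2, 0.09 for Ikzf1 and -0.04 for Ikzf5. With coverage offsets it was -0.17 for Ikzf3, -0.31 for Ikzf4, -0.00 for Ikzf2, 0.04 for Ikzf1 and 0.06 for Ikzf5. In the windows Ikzf4 kept the largest share of its shift under both, Ikzf2 kept almost none under coverage offsets, and Ikzf5 turned direction with coverage. The start-bin median of Ikzf3 was -0.48 with loess alone, -0.20 with GC offsets and -0.006 with coverage offsets. That of Ikzf2 was 0.35, 0.06 and -0.11 in that order, and that of Ikzf4 was -0.58, -0.38 and -0.29. For Ikzf1 it was -0.01, -0.0002 and 0.17, and for Ikzf5 -0.21, -0.03 and 0.07. Coverage offsets also take out any change that a whole bin shares, and which part of the difference comes from GC content was not tested.

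**Figure D4:**
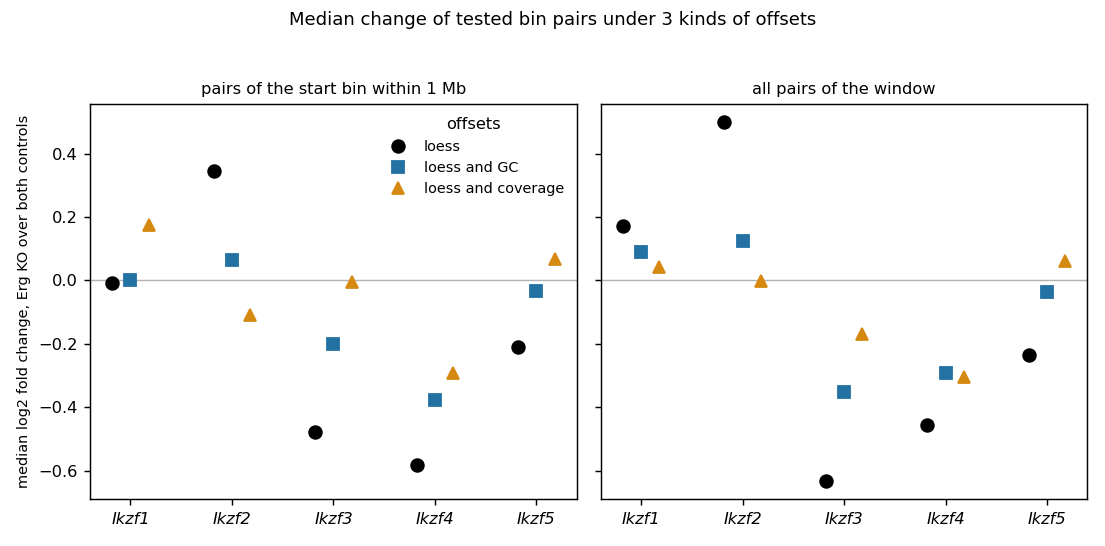
Median log2 fold change (Erg KO over both controls) of the tested start-bin pairs, left, and of all window pairs, right, for each gene under loess offsets alone (circles), with GC offsets (squares) and with coverage offsets (triangles). Ikzf3 and Ikzf4 stay below 0 in the window under all 3, and Ikzf2 goes from 0.50 with loess alone to near 0 with coverage. For start-bin pairs, coverage offsets bring Ikzf3 from -0.48 to -0.006 and Ikzf2 from 0.35 to -0.11.

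Summed by distance, contacts of a start bin were taken over the mean at the same distance on all autosomes of the library, as log2 observed over expected. From 100 kb to 1 Mb, Ikzf3 had 0.29 and 0.32 in Erg KO cells, against 0.61 and 0.62 in the CreT control and 0.68 and 0.94 in the Erg fl/fl control. Ikzf4 had 0.27 and 0.50 in Erg KO cells, against 0.67 and 0.62 in the CreT control and 0.66 and 0.86 in the Erg fl/fl control. Both genes thus had more read pairs with their surroundings than an average bin in all 6 libraries, with Erg KO libraries lowest. Ikzf2 had -0.09 and -0.32 in Erg KO cells, against -0.71 and -0.56 in the CreT control and -0.55 and -0.81 in the Erg fl/fl control, below average in every library and least so in Erg KO cells. Ikzf1 lay between -0.15 and -0.03 and Ikzf5 between -0.14 and 0.09 over all libraries, with groups that overlapped. This start-bin measure takes no account of bin coverage, here and below, unless stated otherwise. Start-bin coverage (log2) averaged 0.37 in Erg KO cells and 0.55 in the controls for Ikzf3. It averaged 0.27 and 0.40 for Ikzf4, and 0.11 and -0.06 for Ikzf2, in that order. How much of the differences follows coverage was not tested. Exact permutation tests over 15 splits cannot go below 0.0667, and the lowest adjusted p among 60 tests of gene, distance class and side was 0.154, so this test could call no difference.

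By distance class, Ikzf1 stood out for its spread. At 500 kb to 1 Mb downstream it had -0.62 and -1.42 in Erg KO cells, against -1.60 and -1.55 in the CreT control and -1.72 and -1.56 in the Erg fl/fl control, so that most of the difference in means of 0.59 lay in Erg KO replicate 1. The Ikzf2 stretch at 200 to 400 kb downstream had 1.01 and 0.60 in Erg KO cells, against 0.05 and 0.27 in the CreT control and 0.36 and -0.22 in the Erg fl/fl control. Contact there was above average in both Erg KO libraries and higher than in any control library, while on the upstream side of Ikzf2 at the same distance all 6 libraries were far below average, between -1.64 and -1.08. Ikzf3 downstream at 500 kb to 1 Mb had -0.17 and 0.37 in Erg KO cells, against 0.78 and 0.58 in the CreT control and 0.63 and 1.36 in the Erg fl/fl control. Ikzf4 had at that distance upstream, in the olfactory receptor cluster, between -4.66 and -2.01 in all libraries, from 5 to 27 read pairs each.

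The insulation score is the log2 of contacts across a bin, in a square of 5 by 5 bins, over the chromosome mean, so that a low score marks a place that contacts rarely cross. Over all bins 65.8% changed, 26.7% down and 39.1% up, and of the start bins 3 fell and 1 rose. Ikzf4 had -0.26 and -0.12 in Erg KO cells, against 0.38 and 0.16 in the CreT control and 0.24 and 0.83 in the Erg fl/fl control, a difference of -0.69 ± 0.11 (SE, limma, adjusted p = 0.0012) at the 1.80 percentile of all bins. Ikzf3 had -0.12 and -0.01 in Erg KO cells, against 0.40 and 0.31 in the CreT control and 0.39 and 0.67 in the Erg fl/fl control (-0.56 ± 0.08, adjusted p = 0.000733). For both genes every control library was above 0 and every Erg KO library below. Ikzf2 ran the other way, with 0.15 and 0.01 in Erg KO cells, against -0.28 and -0.20 in the CreT control and -0.28 and -0.75 in the Erg fl/fl control (0.54 ± 0.09, adjusted p = 0.00127). Ikzf5 averaged 0.08 ± 0.05 in Erg KO cells and 0.29 ± 0.08 in the controls (SD, n = 2 and 4), with groups apart (-0.23, limma, adjusted p = 0.0218). Ikzf1 had 0.57 and 0.76 in Erg KO cells, against 0.63 and 0.63 in the CreT control and 0.57 and 0.43 in the Erg fl/fl control, and was not called (0.09, adjusted p = 0.38). Its direction changed with the libraries used, with 0.30 without Erg KO replicate 1, and -0.037 without replicate 2 of either Erg KO or the Erg fl/fl control. Those last 2 fits are 1 comparison, since the sex term takes up the other library labelled male. The fall of Ikzf5 was not called without CreT control replicate 1 (-0.21, adjusted p = 0.14) or 2 (-0.26, adjusted p = 0.0582). Against the CreT control alone, where 54.9% of all bins changed (21.3% fell and 33.6% rose), Ikzf3 and Ikzf4 fell, Ikzf2 rose and Ikzf5 just missed (-0.24, adjusted p = 0.0504). Against the Erg fl/fl control alone, where 63.1% changed (25.3% fell and 37.8% rose), Ikzf3, Ikzf4 and Ikzf5 fell and Ikzf2 rose. Computed over expected contacts and bin coverage, only Ikzf3 was still called, while Ikzf4 had -0.46 (adjusted p = 0.0548) and Ikzf2 0.18 (adjusted p = 0.102).

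Over the windows, 21 of 21 insulation scores rose for Ikzf2 and 16 of 21 for Ikzf1, while 19 fell for Ikzf3, 16 fell and 4 rose for Ikzf4, and 8 fell and 1 rose for Ikzf5. Of all bins 26.7% fell and 39.1% rose. The start bin of Ikzf1 was the bin of its window that changed least, at 0.09 beside a median of 0.47. Computed over expected contacts and bin coverage, the counts were 1 rise for Ikzf2, 4 rises for Ikzf1, 8 falls for Ikzf3, 12 falls for Ikzf4 and 3 rises for Ikzf5. By that score 10.3% of all bins fell and 7.1% rose. The insulation minimum nearest to Ikzf3, a bin lowest within 300 kb on either side as about 10.4% of bins are, lay 100 kb upstream of the start in all 6 libraries. That of Ikzf1 lay 300 kb upstream in both Erg KO libraries and 400 kb upstream in all 4 control libraries, a shift of 1 bin that was not tested. For Ikzf2, Ikzf4 and Ikzf5 its place varied between libraries of 1 group.

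Compartment scores, which divide a chromosome into gene-rich active (positive) and inactive (negative) chromatin and were scaled to SD 1, ordered the members as Ikzf4, Ikzf3, Ikzf5, Ikzf1 and Ikzf2 in control cells. Ikzf4 averaged 1.47 ± 0.04 in Erg KO cells and 1.37 ± 0.06 in the controls, and Ikzf3 1.24 ± 0.02 in both (SD, n = 2 and 4). In control cells the libraries of Ikzf5 and Ikzf1 overlapped, and the other neighbours in this order did not. Ikzf2 was the only member with a called change, where 4.38% of all bins changed (2.88% fell and 1.5% rose). It had -0.26 and -0.53 in Erg KO cells, against -0.62 and -0.61 in the CreT control and -0.65 and -0.85 in the Erg fl/fl control. It stayed negative in every library, and both Erg KO values were above all control values (0.34 ± 0.03, limma, adjusted p = 0.0405). The call was lost without a sex term (0.29, adjusted p = 0.277) and without CreT control replicate 1 (0.34, adjusted p = 0.196) or 2 (0.35, adjusted p = 0.142), at nearly the same size. Ikzf1 lay close to 0, with -0.40 and -0.01 in Erg KO cells, against 0.03 and -0.03 in the CreT control and -0.18 and 0.02 in the Erg fl/fl control (-0.24, adjusted p = 0.0705). Its groups overlapped, with Erg KO replicate 1 alone at the low end. Ikzf5 had -0.04 and -0.15 in Erg KO cells, against 0.05 and -0.01 in the CreT control and 0.18 and 0.50 in the Erg fl/fl control (-0.30, adjusted p = 0.122). On its chromosome the score was the first principal component of the contact correlations. In Erg fl/fl control replicate 2 alone, the second component followed gene density better. There the first had an absolute r of 0.47 with gene density, against 0.49 to 0.52 in the other libraries. Whether this sets the 0.50 apart was not tested. Calls not made with all libraries appeared without 1 of them, in fits that called more of the genome. Without Erg KO replicate 1 they were Ikzf4 (0.16, adjusted p = 0.0487) and Ikzf5 (-0.57, adjusted p = 0.0224), where 16.7% of all bins fell and 20% rose, and without replicate 2 of either Erg KO or the Erg fl/fl control Ikzf1 (-0.31, adjusted p = 0.0236), where 10.2% fell and 7.67% rose. Without Erg fl/fl control replicate 1, Ikzf1 (-0.22, adjusted p = 0.0142), Ikzf4 (0.13, adjusted p = 0.0236) and Ikzf5 (-0.35, adjusted p = 0.0107) were called, where 21.8% fell and 31.8% rose. Against either control alone no bin of the genome passed, with 6764 and 8902 of 23651 at an unadjusted p below 0.05. Of the 21 bins in each window, 5 rose around Ikzf2, 1 fell around Ikzf1 and none was called around the others.

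**Figure D5:**
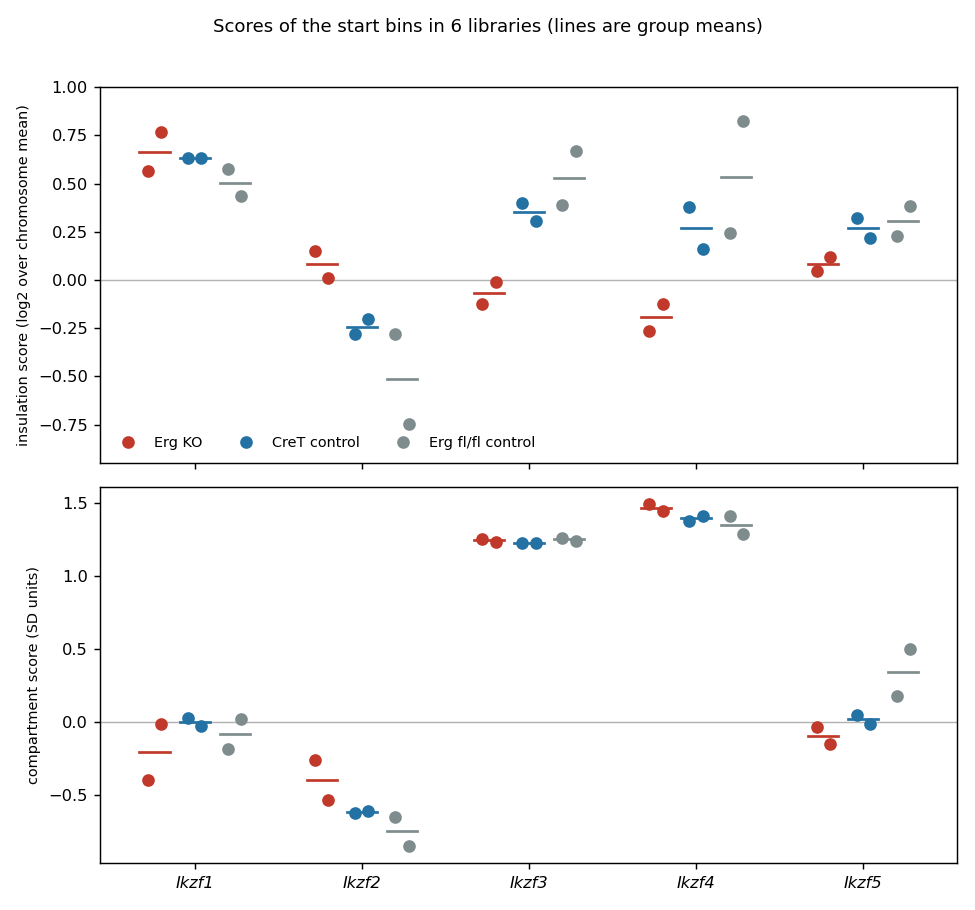
Insulation score (top, log2 over the chromosome mean) and compartment score (bottom, in SD units) of the 5 start bins, each point a library and each line a group mean, with Erg KO left of the CreT and Erg fl/fl controls. Insulation of Ikzf3 and Ikzf4 is below 0 in Erg KO cells and above 0 in the controls, that of Ikzf2 is the reverse, and compartment scores of Ikzf3 and Ikzf4 stay above 1.2 in all libraries.

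Local contacts, the summed read pairs of a bin with bins 200 kb to 2 Mb away, changed for 67.6% of all bins (33.2% fell, 34.3% rose) and for all 5 start bins, of which 3 fell and 2 rose. Ikzf3 had 781 and 813 normalised read pairs in Erg KO cells, against 1028 and 998 in the CreT control and 1030 and 1296 in the Erg fl/fl control, a log2 fold change of -0.49 (edgeR, adjusted p = 2.29e-06). Ikzf4 had 786 and 914 in Erg KO cells, against 1087 and 1075 in the CreT control and 1082 and 1304 in the Erg fl/fl control (-0.48, adjusted p = 1.04e-06). In both genes the 4 control libraries lay above the Erg KO libraries, with Erg fl/fl control replicate 2 highest. Ikzf2 had 680 and 633 in Erg KO cells, against 504 and 542 in the CreT control and 590 and 467 in the Erg fl/fl control, again with no overlap (0.37, adjusted p = 0.000335). Local contacts were not fitted with offsets for GC content or coverage. Start-bin coverage (log2, Erg KO minus controls) was -0.09 for Ikzf1, 0.17 for Ikzf2, -0.18 for Ikzf3, -0.12 for Ikzf4 and -0.04 for Ikzf5. Against the CreT control alone, where 60.4% of all bins changed (30.1% fell and 30.2% rose), Ikzf3 and Ikzf4 fell, Ikzf1 and Ikzf2 rose, and Ikzf5 was not called (-0.07, adjusted p = 0.417). Against the Erg fl/fl control alone, where 63.5% changed (31.5% fell and 32% rose), Ikzf3, Ikzf4 and Ikzf5 fell, Ikzf2 rose, and Ikzf1 was not called (0.17, adjusted p = 0.163). Ikzf1 (0.23, adjusted p = 0.0324) and Ikzf5 (-0.16, adjusted p = 0.0314) passed narrowly, and their calls were lost with DESeq2 (adjusted p = 0.158 and 0.101), without a sex term (adjusted p = 0.289 and 0.0713) and without single libraries. Ikzf1 had an adjusted p of 0.323 without Erg KO replicate 1, 0.169 without CreT control replicate 1 and 0.129 without CreT control replicate 2. Ikzf5 had adjusted p between 0.0585 and 0.121 without either Erg KO library, either CreT control library or Erg fl/fl control replicate 2.

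The lymphoid members were set against the others within each library. For log2 observed over expected from 100 kb to 1 Mb, the mean of Ikzf1, Ikzf2 and Ikzf3 minus the mean of Ikzf4 and Ikzf5 was -0.07 and -0.22 in Erg KO cells, against -0.32 and -0.29 in the CreT control and -0.34 and -0.48 in the Erg fl/fl control. Both Erg KO libraries were above all control libraries, a difference of 0.21 with an exact permutation p of 0.0667, the smallest possible, and 0.2 after adjustment over 3 measures. Lymphoid members alone differed between Erg KO and control cells by 0.03 on average and the others by -0.19. For insulation the lymphoid minus others value was 0.31 and 0.26 in Erg KO cells, against -0.10 and 0.06 in the CreT control and -0.01 and -0.49 in the Erg fl/fl control (difference 0.42, exact p = 0.133). For the compartment score it was -0.53 and -0.42 in Erg KO cells, against values from -0.75 to -0.50 in the controls (difference 0.13, exact p = 0.267). The lymphoid mean holds Ikzf2 and Ikzf3, which moved in opposite directions. With Ikzf1 and Ikzf3 alone as the lymphoid members, and Ikzf2 among the others, the differences were -0.21, -0.09 and -0.12, all of the opposite sign, so these data give no direction for lymphoid members as a class.

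Contacts between the windows of different members were few. Ikzf1 and Ikzf3 share chromosome 11, and their windows met less than the average for their distance in every library, with log2 observed over expected of -0.79 and -0.60 in Erg KO cells, against -0.80 and -0.97 in the CreT control and -0.78 and -1.03 in the Erg fl/fl control. Between chromosomes, the gene-rich windows of Ikzf3 and Ikzf4 met more than their coverage would give, with 1.27 and 1.05 in Erg KO cells, against 1.30 and 1.43 in the CreT control and 0.88 and 1.24 in the Erg fl/fl control, from 40 to 123 read pairs a library. Ikzf4 and Ikzf5 were next, above 0 in all 6 libraries, and the windows of Ikzf1 and Ikzf2 were below 0 with each other and with every other member in all 6. None of 10 pairs of members passed the test between Erg KO and control cells (lowest adjusted exact p = 0.667), and none could, since its smallest p is 0.0667. Some pairs rest on few read pairs, such as 1 to 22 a library between the windows of Ikzf2 and Ikzf3.

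Genes of the pathway were described by the same measures. Each listed gene starts in its bin, while 41.6% of all bins hold a protein-coding start. Shares among such bins alone were not computed, so the lists are not set against bins of like gene content. Of 17 autosomal genes of Ikaros cofactors, insulation fell for 10 and rose for none, with a median difference of -0.35 beside 0.08 over all bins, of which 26.7% fell and 39.1% rose. The falls included Gatad2b (-0.93), Mbd3 (-0.66), Mta1 (-0.53) and Chd4 (-0.40), which encode NuRD subunits, and the remodeller gene Smarca4 (-0.50). The 4 genes of the cereblon ubiquitin ligase, through which lenalidomide degrades Ikaros and Aiolos in human cells, had 3 falls (Ddb1, Cul4a and Rbx1) and 1 rise, of the substrate receptor gene Crbn (0.29, adjusted p = 0.00997). Of 24 genes listed as Ikaros targets in B-cell progenitors, 19 fell and none rose, with a median of -0.32. They included the lineage factor gene Pax5 (-0.72), the signalling gene Dtx1 (-0.75), the cell cycle genes Cdkn1a (-0.71) and Ccnd3 (-0.69) and the surrogate light chain genes Igll1 and Vpreb1, which share a bin (-0.66). Rag1 and Rag2, the recombinase genes, also share a bin (-0.19), and genes of 1 bin count once each here with 1 value between them. Of 4 genes scored from the setting of Helios and Eos in regulatory T cells, Il2ra fell (-0.31) and Nt5e rose (0.23). Local contacts fell for 15 of 17 cofactors and rose for 1, and fell for 3 of 4 ligase genes, 19 of 24 targets and 4 of 5 regulatory T cell genes, beside 33.2% of all bins that fell and 34.3% that rose. Compartment scores, which fell for 2.88% of all bins, fell for Crbn and for Myc among the targets and changed for no other listed gene outside the family. Over expected contacts and bin coverage, insulation fell for 10.3% of all bins and rose for 7.1%. By that score 2 cofactors, 0 ligase genes and 5 targets fell, and 2 targets rose. Most of the insulation falls were thus not called once coverage was taken into account, while local contacts were not recomputed in that way.

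The bins most like each start bin, by Euclidean distance over compartment and insulation scores in 6 libraries among 9575 bins holding a gene start, were those of Vapb, Gm10334 and Hhip for Ikzf1, Gas2, Grem1 and Nt5c1b for Ikzf2, Gnpat, Mical3 and Fam89a for Ikzf3, Lypd3, Aspdh and Chid1 for Ikzf4, and Tbx5, R3hcc1l and Gsc for Ikzf5. Ikzf3 had the closest match (0.15, to the bin of Gnpat) and Ikzf1 the most distant first match (0.44, to the bin of Vapb), in units of the SD of each score over all bins.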

How the data were processed

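In situ Hi-C libraries of 6 B-cell progenitor cultures were used. Per the study's methods, the authors trimmed and aligned read pairs to mm10 with diffHic, cutadapt and bowtie2, marked duplicates, removed dangling ends, and deposited raw counts of read pairs per pair of 100-kb bins, with no normalisation. The 5 genes were placed with the mm10 annotation (GENCODE). The members and gene lists were chosen with earlier results of these data known.

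From the deposited counts, autosomal bins with 0.3 to 3 times the median coverage were kept. Bin pairs with a summed count of at least 5 times the median between chromosomes in 500-kb blocks were fitted across all autosomes with edgeR 4.0.16 (quasi-likelihood, loess offsets, group and sex as terms), and p-values were adjusted over all 754142 pairs by Benjamini-Hochberg. Normalised read pairs are counts divided by these offsets. Insulation and compartment scores were tested over all bins with limma 3.58.1 and local contacts with edgeR (TMM), in R 4.3.3. Exact permutation tests were two-sided. Distances and levels between members used log2 observed over expected. DESeq2 1.42.0, offsets for GC content and for coverage, fits with other terms and fits without each library were alternatives. By rule, the text named the 5 members and, for each, up to 6 called start-bin pairs with the smallest p (2 where fewer were called), up to 3 called beyond 1 Mb, the gene starting nearest the middle of a partner bin, the listed pathway genes and the 3 bins most alike. Other pairs and partner genes were named after their values were seen. On simulated counts of 20000 features edgeR recovered 23.5% of 2-fold and 72.5% of 4-fold changes, and limma recovered 77.5% of 2-fold changes. Depth was 29014581 to 68085468 read pairs, which leaves some start-bin pairs at under 10 read pairs a library. Read pairs without molecular identifiers are not independent molecules.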

Additional observations from a re-analysis of the deposited data

Results flagged for a closer look

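Of 88 values checked among the 4 control libraries, 5 had 1 library far from the other 3, and in all 5 it was Erg fl/fl control replicate 2, the shallowest library and 1 of 2 labelled male. Chance alone sets off this check for about 1 group in 20. The insulation score of Ikzf2 was -0.75 there, against -0.28 to -0.20 in the other control libraries. Local contacts were 1296 normalised read pairs for Ikzf3, against 998 to 1030, and 1304 for Ikzf4, against 1075 to 1087. Log2 observed over expected of Ikzf1 was 0.98 at 100 kb downstream, against 0.69 to 0.71, and -0.83 at 200 to 400 kb upstream, against -0.61 to -0.59. Whether depth or sex sets these values apart was not tested.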

How the results depend on the processing

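Counts of called pairs moved with the model, and with GC or coverage offsets so did some directions in the windows. Of the 26 called start-bin pairs, 26 kept their direction with GC offsets and 25 with coverage offsets. Of the 249 called window pairs, 237 and 197 did. With coverage offsets 29 of the 249 were still called in the same direction. Start-bin pairs that fell, 18 in all, were 7 with DESeq2, 10 with the abundance filter lowered to 2 times, 11 with TMM, 5 with GC offsets, 2 with coverage offsets, 10 without sex and 10 with the replicate number in place of sex. Those that rose, 8 in all, were 2 with DESeq2, 4 with GC offsets, 2 with coverage offsets and 5 with the replicate number in place of sex. Window pairs that fell (183) were 61 with DESeq2, 45 with GC offsets, 26 with coverage offsets, 102 without sex and 102 with the replicate number in place of sex. Window pairs that rose (66) were 7 with DESeq2, 43 with the lowered filter, 10 with GC offsets, 21 with coverage offsets, 27 without sex and 26 with the replicate number in place of sex. The 21 with coverage offsets were 2 for Ikzf1, 0 for Ikzf2, 10 for Ikzf3, 1 for Ikzf4 and 8 for Ikzf5. With loess alone Ikzf2 had 45 rises, Ikzf3 had 1 and Ikzf5 had 0. Beyond 1 Mb the 2 falls were 1 with the lowered filter and 0 with DESeq2, GC offsets, coverage offsets, without sex or with the replicate number in its place, where 1 pair rose in each of the last 2 fits. The cause was not tested.

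Over expected contacts and coverage, start-bin insulation had 1 fall and 0 rises in place of 3 and 1, and Ikzf1 turned to -0.068. Insulation falls were 2 without sex, with a replicate block and with squares of 3 by 3 bins, where Ikzf5 was not called (-0.21, -0.26 and -0.0368, adjusted p = 0.0988, 0.0582 and 0.724). The compartment rise of Ikzf2 was not called without sex (0 rises), and 1 start bin, that of Ikzf1, fell after thinning to equal depth (-0.23). Local contacts rose for 1 member in place of 2 with 200 kb to 1 Mb, with DESeq2 and without sex, and fell for 2 in place of 3 in the last 2 fits. Observed over expected turned to -0.038 for Ikzf1 over the bins of the gene body, and to 0.00995 and 0.0998 for Ikzf5 over same-chromosome and coverage-corrected expectations. Lymphoid minus others, with Ikzf2 moved to the others, was -0.213, -0.0922 and -0.115. In 500-kb windows, contacts between members were -0.33 for Ikzf1 and Ikzf4, -0.14 for Ikzf1 and Ikzf5, 0.26 for Ikzf3 and Ikzf4 and 0.39 for Ikzf3 and Ikzf5, and 1 pair with a library at 0 read pairs had no value.

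Leaving out 1 library gave 0 to 14 start-bin falls, 0 to 6 rises, 0 to 155 window falls, 0 to 51 window rises and 0 to 2 falls beyond 1 Mb. It gave -0.0355 to 2.12 for Ikzf1 at 700 kb, -0.0372 to 0.30 for Ikzf1 insulation, 2 to 3 insulation falls and 1 to 2 rises, 0 to 2 compartment falls and rises, and 1 to 2 local rises. Between windows it gave -0.23 to 0.89 for Ikzf1 and Ikzf4, -0.16 to 0.0587 for Ikzf3 and Ikzf4, -0.24 to 0.11 for Ikzf3 and Ikzf5, and -0.49 to 0.0844 for Ikzf4 and Ikzf5.

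Same-numbered libraries did not deviate together for Erg KO and CreT control (r of local contacts over bins -0.17) or for the controls (-0.39). They did for Erg KO and Erg fl/fl control (0.54), where replicate number and labelled sex coincide and cannot be told apart. The numbers were not used as pairs. A replicate block beside sex takes up the difference between the 2 CreT control libraries, as only there do number and labelled sex differ. That fit is thus nearly the same as the one without CreT control replicate 2, and is no separate check. With a replicate block beside sex, 20 of the 26 start-bin calls were called, compartment rises were 0, insulation falls 2, local falls 2 and local rises 1.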
